A study of Rattus norvegicus with 12 samples.

Results

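The miR-23/27/24 clusters are a pair of paralogous microRNA (miR) loci, and the 5 guide-strand miRs that they give, miR-23a-3p, miR-23b-3p, miR-27a-3p, miR-27b-3p and miR-24-3p, were compared with each other in RNA of extracellular vesicles (EVs) from rat serum. The 5 miRs were taken by name as the products of these loci, with earlier results of these data known, and all 5 (rno-miR-23a-3p, rno-miR-23b-3p, rno-miR-27a-3p, rno-miR-27b-3p and rno-miR-24-3p, written without the rat prefix below) were present among the 426 miRs of the count data. Serum EVs were sequenced from 12 female wild-type Wistar rats, each with an Achilles tendon injured by needle puncture. In 6 rats rapamycin, an inhibitor of the mTOR kinase, was injected into the peritoneum, in 3 rats killed at day 7 and 3 killed at day 21, and rats killed later had received more injections. The other 6 rats received the vehicle, PEG and TWEEN 80 in water, on the same schedule, again as 3 rats at day 7 and 3 at day 21. Every rat was injured, so no uninjured serum entered any comparison, and the tissue label of the samples reads tendon although the extraction described with them is that of EVs.

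miR-23, miR-27 and miR-24 are cut from shared primary transcripts, so that the members of a cluster are made together before each is matured and turned over separately. The seed, near the 5′ end of the mature miR, is the stretch that pairs with target transcripts. The clusters are known from endothelial and blood cells, miR-23 for repressing glutaminase, miR-27 for restraining adipocyte differentiation through PPARγ, and miR-24 for holding back the cell cycle. EVs in serum come from many cell types, so a level here is a share of the sequenced miR pool, in which more of one miR and less of the others, or more vesicles of a source and more miR in each, cannot be told apart.

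The mature sequences show how close the paralogs are and are given from RefSeq for rat build GRCr8, 5′ to 3′, with the seed (bases 2 to 8) in capitals. The miR-23 pair and the miR-27 pair each share their seed, and miR-24-3p has a seed of its own.
miR-23a-3p: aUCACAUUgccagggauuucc
miR-23b-3p: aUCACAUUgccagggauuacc
miR-27a-3p: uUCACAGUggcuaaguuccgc
miR-27b-3p: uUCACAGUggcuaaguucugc
miR-24-3p: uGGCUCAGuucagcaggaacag

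Counted from 1 at the 5′ end, miR-23a-3p and miR-23b-3p differ at 1 of 21 bases (U19A, with the base of miR-23a-3p first), and miR-27a-3p and miR-27b-3p also at 1 of 21 (C19U, with the base of miR-27a-3p first). Both substitutions lie outside the seed. No other miR of the count data with a RefSeq sequence was within 2 mismatches of any of these 4 miRs. The authors kept reads shorter than the mature miRs and allowed a mismatch to them, so a read that ends before base 19, or carries an error there, could have been counted on the wrong paralog, and the share of such reads was not tested.

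The a cluster, Mir23a, Mir27a and Mir24-2, lies on the minus strand at chr19:40859455-40859843 and spans 389 bases without an overlapping annotated gene. The b cluster, Mir23b, Mir27b and Mir24-1, lies on the minus strand at chr17:1818669-1819482 and spans 814 bases. Its precursors overlap the protein-coding gene Aopep, an aminopeptidase gene, and Mir24-1 also overlaps Fancc and Mir3074. The mature miR-24-3p is the same in both precursors, which are shown because they are why its counts cannot be divided between the loci (capitals mark the mature miR).
Mir24-2: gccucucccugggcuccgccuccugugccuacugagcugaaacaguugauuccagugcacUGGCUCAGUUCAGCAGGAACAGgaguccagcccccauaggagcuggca
Mir24-1: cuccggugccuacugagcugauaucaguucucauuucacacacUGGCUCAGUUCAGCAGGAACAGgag

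The libraries held between 16327 and 95834 miR counts, and the 5 miRs together made up 2.75% to 8.96% of them. The 10 libraries that the study lists in its own table of read classes gave 0.686 to 1.58 miR counts per count of the calibrator spike-ins, synthetic RNAs of which every sample received the same amount. The others, rapamycin day 7 replicate 2 and vehicle day 7 replicate 1, gave 5.53 and 12.8 and stood apart. A supplementary figure legend of the paper counts 10 samples in its miR analysis. Its lists of changed miRs instead state 3 animals per timepoint and treatment. Results over all 12 libraries here therefore take in libraries that this legend leaves out. Both of these unlisted libraries belong to day 7, so each result is given for all 12 libraries and again for the 10 listed ones.

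All 5 miRs were counted in every library, from 46 counts of miR-23b-3p in one day 21 library to 2550 of miR-24-3p in vehicle day 7 replicate 1. Levels below are CPM, counts scaled to a common library total of miR counts, after TMM, which sets a factor for each library from the bulk of its miRs. miR-23a-3p was the highest of the 5 in 11 of 12 libraries, and miR-27a-3p was the lowest in 6, miR-23b-3p in 4 and miR-24-3p in 2. Since the efficiency of adapter ligation can differ between miRs, an order between miRs is an order of counts and not of molecules.

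In CPM, the a cluster was steady. In the day 7 libraries, replicates 1, 2 and 3, miR-23a-3p stood at 18583, 15449 and 17159 CPM with vehicle and at 16348, 18176 and 17726 CPM with rapamycin. At day 21 it stood at 16655, 13522 and 16909 CPM with vehicle and at 14780, 23509 and 14090 CPM with rapamycin. The 4 groups overlapped, and the highest library was 1.74 times the lowest. miR-27a-3p, its neighbour in the cluster, stood at 5186, 4847 and 5304 CPM with vehicle and at 4286, 4640 and 7244 CPM with rapamycin at day 7. At day 21 it stood at 5732, 5216 and 4626 CPM with vehicle and at 4060, 5700 and 4104 CPM with rapamycin. Again the groups overlapped, and the range was 1.78-fold.

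The b cluster varied more. miR-23b-3p stood at 13983, 7598 and 3320 CPM in the day 7 vehicle libraries and at 9521, 14461 and 7883 CPM in the day 7 rapamycin libraries. At day 21 it stood at 4182, 1966 and 7902 CPM with vehicle and at 4313, 10485 and 1946 CPM with rapamycin. Its range was 7.43-fold over 12 libraries and 5.39-fold over the 10 listed, and the 2 unlisted libraries were its highest. miR-27b-3p stood at 12844, 8204 and 4769 CPM in the day 7 vehicle libraries and at 9582, 15940 and 10908 CPM in the day 7 rapamycin libraries. At day 21 it stood at 4470, 4293 and 6428 CPM with vehicle and at 6216, 9154 and 3258 CPM with rapamycin. The unlisted libraries were the highest here too, with a range of 4.89-fold over 12 libraries and 3.35-fold over the 10.

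miR-24-3p, which both clusters give, was as variable as the b cluster. It stood at 21365, 4695 and 6530 CPM in the day 7 vehicle libraries and at 6582, 8957 and 11121 CPM in the day 7 rapamycin libraries. At day 21 it stood at 5588, 6821 and 6510 CPM with vehicle and at 3045, 11775 and 4274 CPM with rapamycin. Vehicle day 7 replicate 1, an unlisted library, stood well above all others and was the library in which miR-24-3p passed miR-23a-3p. The range was 7.02-fold over 12 libraries and 3.87-fold without the unlisted ones.

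**Figure D1:**
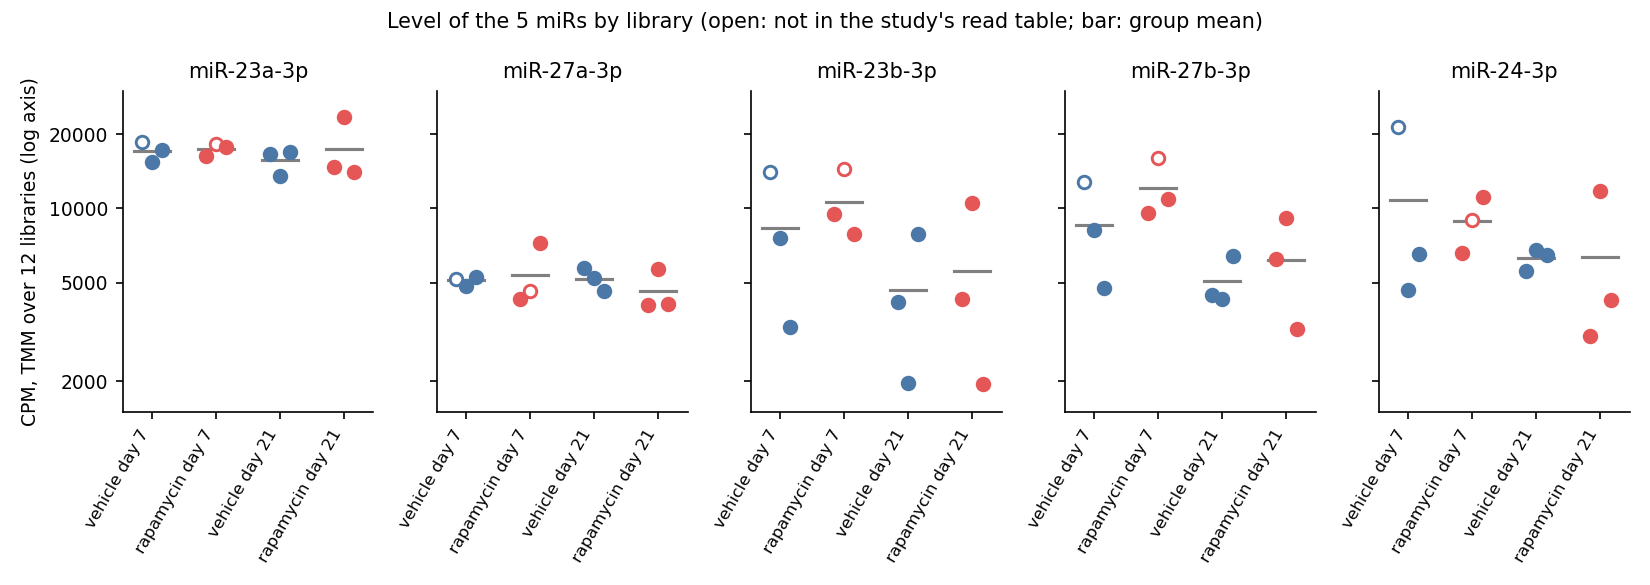
Level of each of the 5 miRs in CPM after TMM scaling (log axis) by group, with 1 point per library (blue vehicle, red rapamycin), open points for the 2 libraries outside the study's read table and a grey bar for the group mean. miR-23a-3p stays between 13522 and 23509 CPM and miR-27a-3p between 4060 and 7244 CPM, while miR-23b-3p runs from 1946 to 14461 CPM.

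The balance between paralogs can be read within a library, where no scaling between libraries enters. miR-23a-3p was counted more often than miR-23b-3p in 12 of 12 libraries. The log2 ratio of their counts averaged 1.48 ± 0.86 (SD, n = 12), a geometric mean ratio of 2.78, and differed from 0 (two-sided exact permutation of signs, p = 0.000488 and, adjusted for the 2 paralog pairs, 0.000977). Over the 10 listed libraries the mean was 1.70 ± 0.76 (SD, n = 10; exact p = 0.00195, adjusted p = 0.00391), a ratio of 3.24. Both raw p-values are the smallest that their sign flips allow.

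For miR-27 the direction was the other way in most libraries. miR-27a-3p was counted less often than miR-27b-3p in 8 of 12 libraries, and the log2 ratio averaged -0.52 ± 0.69 (SD, n = 12; same exact permutation test, p = 0.0269, adjusted p = 0.0269). Over the 10 listed libraries the mean was -0.31 ± 0.54 (SD, n = 10), with 6 of 10 below 0, and the call was lost (exact p = 0.107, adjusted p = 0.107). It was also lost over 11 libraries without rapamycin day 7 replicate 1, rapamycin day 7 replicate 2 or vehicle day 7 replicate 1, each with an exact p of 0.0537 and a mean of -0.46, -0.41 and -0.45.

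As a share of counts, miR-23a-3p made up 55.7% of miR-23 in rapamycin day 7 replicate 2 (95% Wilson interval 53.6% to 57.8%) and 87.9% in rapamycin day 21 replicate 3 (84.2% to 90.8%), the extremes of the 12 libraries. miR-27a-3p made up 22.5% of miR-27 in rapamycin day 7 replicate 2 (20.4% to 24.9%) and 56.2% in vehicle day 21 replicate 1 (50.4% to 61.8%). The intervals cover counting error only, since amplified reads are not independent molecules, and libraries of the same group differed by more than that. In the day 7 vehicle libraries the share of miR-23a-3p was 57.1%, 67.0% and 83.8%, and the intervals of these 3 libraries did not overlap.

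**Figure D2:**
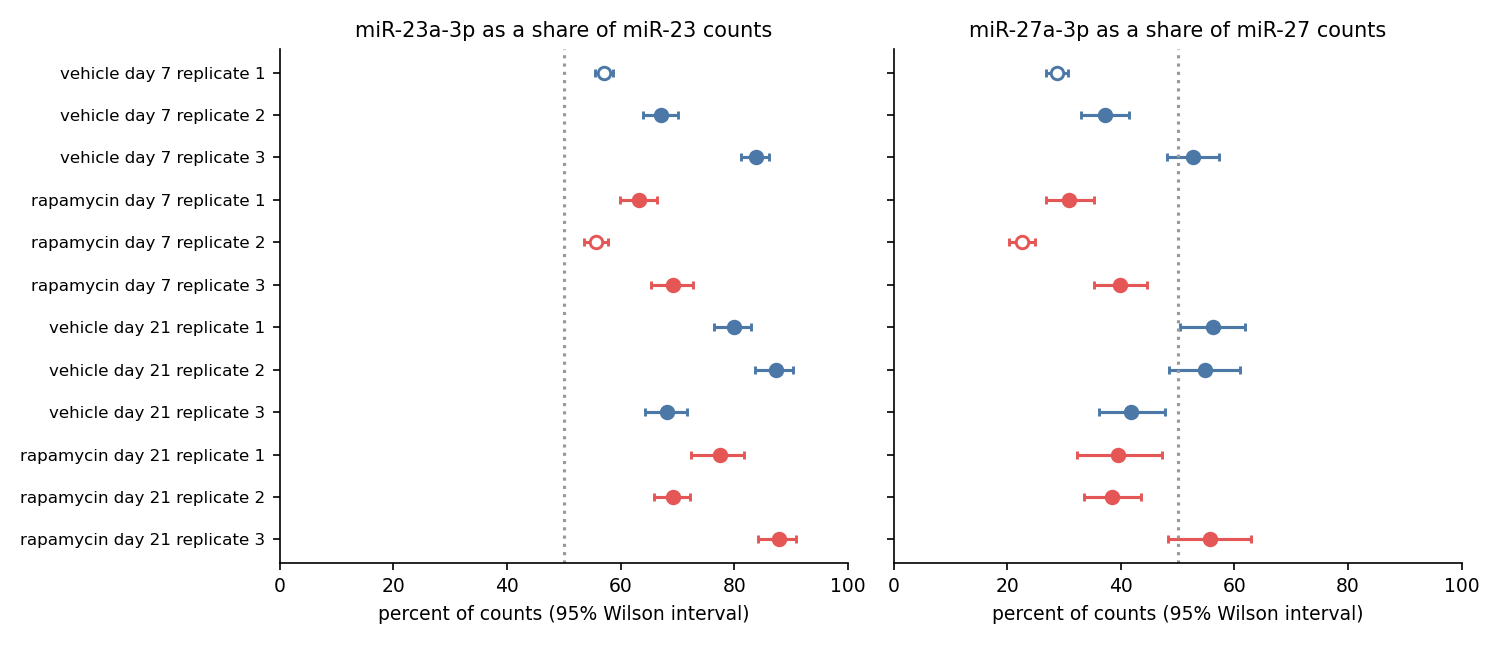
Percent of miR-23 counts that were miR-23a-3p (left) and of miR-27 counts that were miR-27a-3p (right) in each library, with 95% Wilson intervals, blue for vehicle, red for rapamycin and open points for the 2 unlisted libraries. The dotted line marks equal counts of both paralogs. Every miR-23 share lies to its right, from 55.7% to 87.9%, while miR-27 shares lie on both sides, from 22.5% to 56.2%.

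The paralog ratios of miR-23 and of miR-27 varied together from library to library. The log2 ratio of miR-23a-3p to miR-23b-3p and that of miR-27a-3p to miR-27b-3p correlated with r = 0.93 and rho = 0.91 over the 12 libraries and with r = 0.90 and rho = 0.84 over the 10, as a description across libraries that share preparation and counting. The ratios use 4 different miRs, so no count enters both. Both paralog pairs differ at base 19, however, so reads that end before it could move both ratios together, which was not tested. In the 4 libraries where miR-27a-3p exceeded miR-27b-3p (vehicle day 7 replicate 3, vehicle day 21 replicates 1 and 2 and rapamycin day 21 replicate 3), miR-23a-3p was in excess by a log2 ratio of 2.37, 1.99, 2.77 and 2.84, the highest 4 values of that ratio. In the unlisted libraries both ratios were at their lowest, 0.33 and 0.41 for miR-23 and -1.78 and -1.31 for miR-27.

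**Figure D3:**
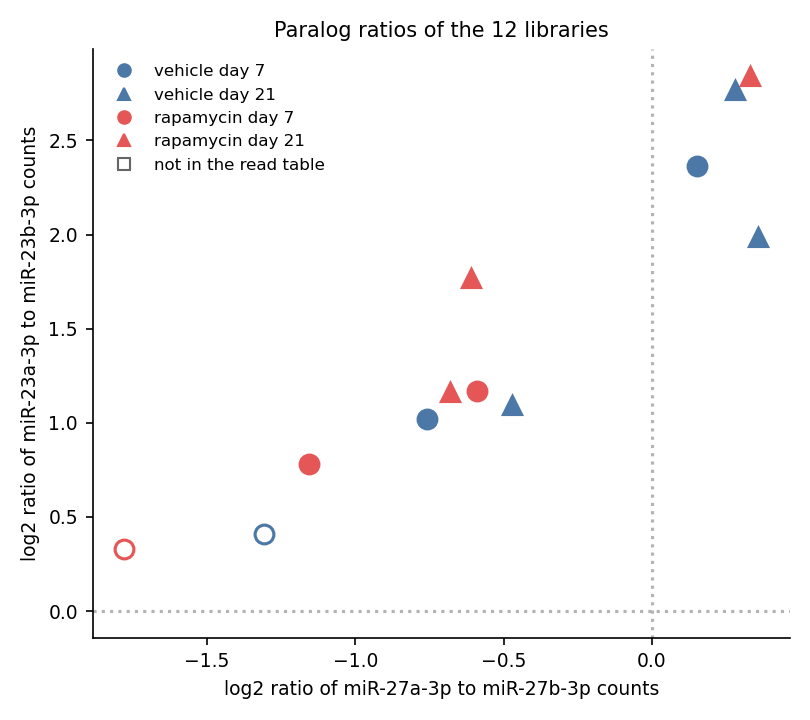
Log2 ratio of miR-27a-3p to miR-27b-3p counts (x axis) against the log2 ratio of miR-23a-3p to miR-23b-3p counts (y axis), 1 point per library, circles for day 7, triangles for day 21, blue for vehicle, red for rapamycin and open points for unlisted libraries. The 12 points rise from -1.78 and 0.33 at the lower left to 0.33 and 2.84 at the upper right, and all lie above 0 on the y axis.

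How tightly pairs of the 5 miRs kept their ratio is another reading of the same counts. Tight ratios of cluster neighbours beside wide paralog ratios go with correlated paralog ratios by arithmetic, so it adds no separate evidence. Neighbours in the a cluster, miR-23a-3p and miR-27a-3p, kept the tightest ratio, with an SD of the log2 ratio of 0.23 over 12 libraries against 0.14 from counting error alone. Neighbours in the b cluster, miR-23b-3p and miR-27b-3p, followed with 0.42 against 0.17 over the 12. A tight ratio is not a close correlation. The log2 CPM of the a cluster pair, both steady, correlated at r = 0.45 over 12 libraries and 0.48 over the 10. That was below miR-23a-3p with miR-23b-3p, at 0.71 and 0.60. The b cluster pair correlated at 0.94 and 0.90. Over the 10 listed libraries the a cluster pair was again the tightest, at 0.24, whereas the b cluster pair, at 0.44, was wider than miR-27a-3p with miR-24-3p. Over 12 libraries the paralogs varied more, with 0.86 for the miR-23 pair and 0.69 for the miR-27 pair, and the widest pair was miR-23b-3p with miR-27a-3p at 0.99. Among all 2701 pairs of the 74 miRs that reached 10 counts in all libraries, the median SD was 0.83 over 12 libraries and 0.65 over the 10. Of those pairs, 0.518% were tighter than the a cluster pair and 7.89% tighter than the b cluster pair over 12 libraries, or 1.52% and 17.8% over the 10. The pairs were not matched for counts, and counting error widens a ratio more where counts are low. miR-24-3p over the 10 listed libraries had an SD of 0.42 with miR-27a-3p and 0.45 with miR-23a-3p, against 0.58 with miR-27b-3p and 0.82 with miR-23b-3p. Over all 12 libraries its values with miR-23a-3p, miR-27b-3p and miR-27a-3p lay close together, at 0.62, 0.62 and 0.64, and only that with miR-23b-3p was wider, at 0.80. These spreads are descriptions, and the differences between them were not tested.

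**Figure D4:**
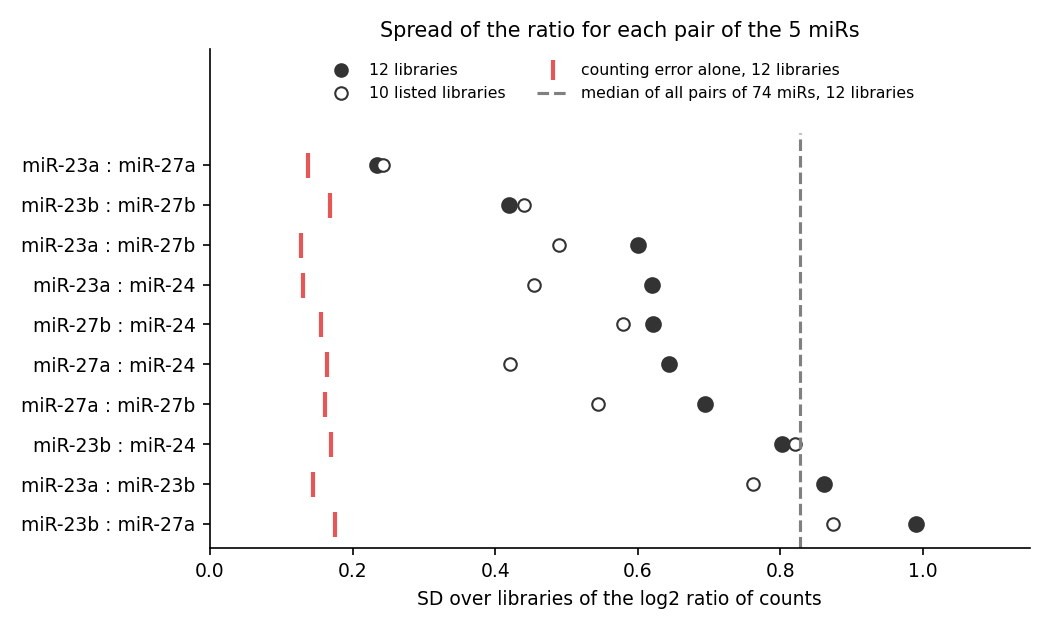
SD over libraries of the log2 ratio of counts for the 10 pairs of the 5 miRs (filled 12 libraries, open 10 listed libraries), with a red tick for the SD that counting error alone gives and a dashed line at the median of all pairs of 74 miRs, 0.83. The pairs of cluster neighbours are the tightest over 12 libraries, at 0.23 and 0.42, and over the 10 listed the b cluster pair is wider than miR-27a-3p with miR-24-3p.

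Neither treatment nor timepoint moved the paralog ratios past the test. With rapamycin the miR-23 ratio was 1.34 ± 0.88 (SD, n = 6) and with vehicle 1.61 ± 0.91 (n = 6), a difference within timepoints of -0.27 on the log2 scale (two-sided exact permutation, p = 0.56, also after adjustment for 4 ratio tests). The miR-27 ratio was -0.75 ± 0.70 (n = 6) with rapamycin and -0.29 ± 0.67 (n = 6) with vehicle, a difference of -0.46 (exact p = 0.21, adjusted p = 0.28). The mean ratios at day 21 lay above those at day 7, and the adjusted p passed for neither. The miR-23 ratio was 1.94 ± 0.76 at day 21 and 1.01 ± 0.74 at day 7 (n = 6 each), a difference within treatments of 0.93 (exact p = 0.065, adjusted p = 0.13). The miR-27 ratio was -0.13 ± 0.50 at day 21 and -0.91 ± 0.67 at day 7, a difference of 0.77 (exact p = 0.045, adjusted p = 0.13), the smallest p of its 400 arrangements being 0.005. In the listed libraries alone these differences were 0.60 (exact p = 0.25) and 0.46 (exact p = 0.18), both with an adjusted p of 0.333, and the groups overlapped in every case. The treatment differences over the 10 were -0.37 for miR-23 (exact p = 0.483, adjusted p = 0.483) and -0.47 for miR-27 (exact p = 0.233, adjusted p = 0.333).

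The question of whether rapamycin changed the serum level of these miRs was put with edgeR's quasi-likelihood test, fitted over all miRs, at a Benjamini-Hochberg adjusted p under 0.05. None of the 5 was called with timepoint as a blocking factor, and none had an unadjusted p under 0.05 over the 12 or the 10 libraries. The filter on abundance left 26 miRs over 12 libraries, of which 7.69% were called, and only miR-23a-3p and miR-24-3p were among the 26. Over the 10 listed libraries it left 110 miRs, all 5 members included, of which 4.55% were called. DESeq2 and limma-voom, run over the 12 libraries, also called none of the 5.

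The b cluster had the highest treatment estimates. For miR-27b-3p the log2 fold change with rapamycin was 0.40 (SE 0.34) over 12 libraries and 0.52 (SE 0.28, adjusted p = 0.344 by edgeR) over the 10. For miR-23b-3p it was 0.31 (SE 0.34) over 12 and 0.50 (SE 0.28, adjusted p = 0.370 by edgeR) over the 10. The a cluster lay nearer 0, with miR-23a-3p at 0.09 (SE 0.32) and 0.22 (SE 0.23) and miR-27a-3p at -0.05 (SE 0.35) and 0.08 (SE 0.29). Without vehicle day 7 replicate 1 alone they were 0.66 for miR-27b-3p and 0.65 for miR-23b-3p (adjusted p = 0.107 for each by edgeR), both with an unadjusted p under 0.05. Without rapamycin day 21 replicate 2 they were 0.24 and -0.044. These were the highest and lowest values of both miRs when 1 of the 12 libraries was left out. In the fit without vehicle day 7 replicate 1, 6 of 36 miRs tested were called. Over all miRs it gave 31 with an unadjusted p under 0.05, against 15 with all 12 libraries. miR-24-3p had no stable sign, with -0.14 (SE 0.34) over 12 and 0.37 (SE 0.28) over the 10. It was above 0 in 3 of the 12 fits that leave out 1 library, at 0.38 without vehicle day 7 replicate 1, 0.050 without rapamycin day 21 replicate 1 and 0.029 without rapamycin day 7 replicate 1. The median of the 5 was 0.09 over 12 libraries and 0.37 over the 10, beside medians of -0.06 and 0.08 over all miRs tested.

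At single timepoints none of the 5 was called either, and none had an unadjusted p under 0.05. At day 7 their log2 fold changes with rapamycin ran from -0.29 (miR-24-3p) to 0.50 (miR-27b-3p) over 12 libraries, where 0.935% of the 107 miRs tested were called. Over the 10 listed libraries they ran from 0.11 (miR-23a-3p) to 0.71 (miR-24-3p), all 5 above 0, with 10% of 30 miRs called and 3 of the 5 members among the 30. At day 21 the fold changes ran from -0.17 (miR-27a-3p) to 0.29 (miR-27b-3p) over 12, where 0% of 426 miRs were called and 12 had an unadjusted p under 0.05. Over the 10 they ran from -0.03 to 0.40, with 1.09% of 92 miRs called. The treatment difference at day 7 minus that at day 21 ran from -0.31 to 0.24 over 12 libraries (0.34% of 294 miRs called) and from -0.17 to 0.57 over the 10 (0.274% of 365 called). None of the 5 was called in that test, and the lowest unadjusted p was 0.656 over 12 and 0.321 over the 10.

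Between timepoints the estimates for the b cluster lay below those for the a cluster, and none passed the test. With treatment as a blocking factor, the log2 fold change from day 7 to day 21 was -0.88 (SE 0.34, adjusted p = 0.0732) for miR-23b-3p and -0.87 (SE 0.34, adjusted p = 0.0732) for miR-27b-3p over 12 libraries. Their median CPM at day 7 and at day 21 was 8702 and 4248 for miR-23b-3p and 10245 and 5343 for miR-27b-3p, and the libraries of the timepoints overlapped. miR-24-3p had -0.63 (SE 0.34, adjusted p = 0.274), whereas miR-23a-3p had -0.06 (SE 0.32) and miR-27a-3p -0.10 (SE 0.35). All 5 estimates were below 0, 0 of 5 passed the adjusted test and 2 of 5 had an unadjusted p under 0.05, beside 62 of all 426 miRs. In the same fit 9.13% of 230 miRs were called, 20 of 21 of them lower at day 21, and the median log2 fold change was -0.16 over the 230 and -0.54 over all 426.

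Without the unlisted libraries the estimates of the b cluster were smaller. Over the 10, miR-27b-3p had -0.50 (SE 0.28, adjusted p = 0.640) and miR-23b-3p -0.39 (SE 0.29, adjusted p = 0.907). The other members lay between -0.11 and 0.04, and 2.98% of 168 miRs were called, none of them a member. Leaving out 1 of the 12 libraries gave 2 calls without vehicle day 7 replicate 3, 3 without rapamycin day 21 replicate 2 and 1 without vehicle day 21 replicate 3, with miR-23b-3p among them each time (-1.06, -1.23 and -1.15). Over all miRs tested those fits called 35 of 262, 32 of 258 and 24 of 246. The estimate also moved with the scaling. Over 12 libraries, miR-23b-3p and miR-27b-3p were called with RLE size factors (log2 fold changes -0.99 and -0.96) and with library totals alone (-1.07 and -1.07). Those settings called 36 of 251 and 34 of 290 miRs tested. With the calibrator spike-ins as the scale all 5 were called, as were 137 of 311 miRs tested, and miR-23b-3p had -3.43. Over the 10 libraries on that scale 10 of 230 miRs were called, none of them a member, and miR-23b-3p had -0.84. Per 1000 calibrator counts, miR-23b-3p had 101 and 222 counts in the unlisted libraries against 1.88 to 14.3 in the listed ones.

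**Figure D5:**
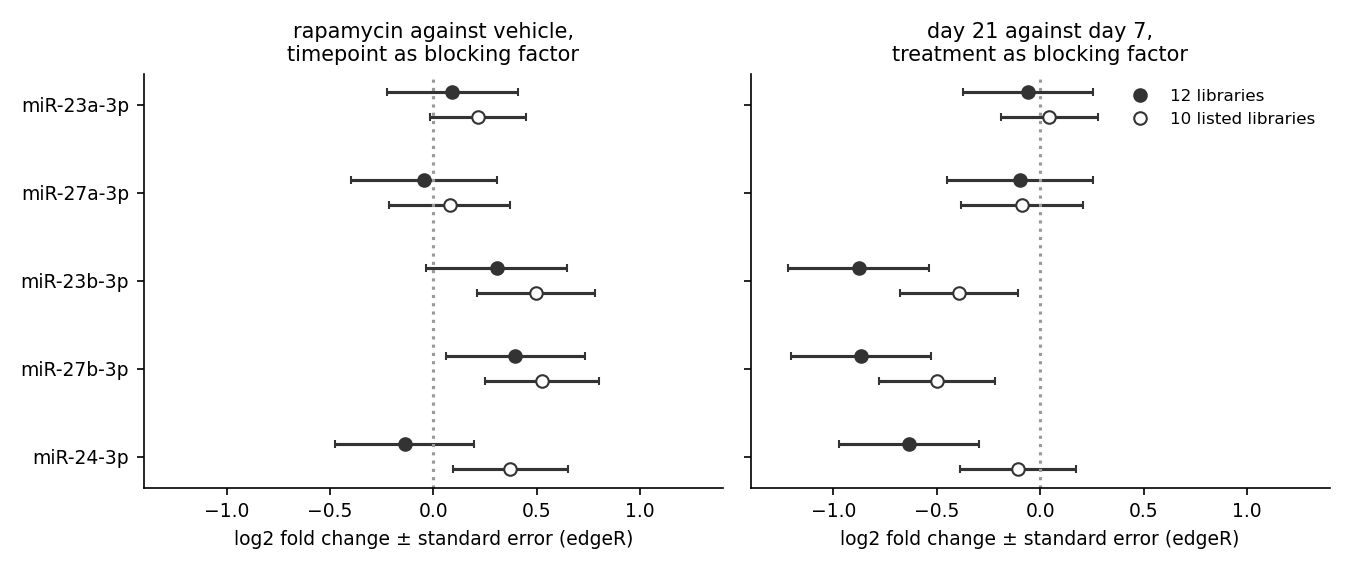
Log2 fold change with its standard error from edgeR for each of the 5 miRs, for rapamycin against vehicle (left) and day 21 against day 7 (right), filled for 12 libraries and open for the 10 listed. Between timepoints miR-23b-3p and miR-27b-3p lie at -0.88 and -0.87 over 12 libraries and at -0.39 and -0.50 over the 10, and the a cluster lies within 0.10 of 0.

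The summed levels of some marker lists of other cell sources also set the unlisted libraries apart. A list of 5 erythrocyte miRs, all counted, summed to 27070 and 60308 CPM in the unlisted vehicle and rapamycin libraries against 114629 to 197930 CPM in the listed ones. A list of 4 leukocyte miRs, all counted, summed to 4474 and 6737 CPM against 13523 to 42943 CPM. A list of 6 vascular miRs, all counted, summed to 56009 and 64841 CPM against 27376 to 61248 CPM. Only the unlisted rapamycin library lay above that range. Across libraries, the log2 of the leukocyte sum correlated with the log2 of the summed level of the 5 miRs at r = -0.87 (n = 12) and -0.91 (n = 10), and the erythrocyte sum at -0.78 and -0.47. The vascular list had 0.53 and 0.21 with the summed level of the 5 miRs, and the 5 fibroblast miRs described next -0.66 and -0.69. The fibroblast list includes miR-29a-3p, which went the other way. Its log2 CPM had r = 0.90 (n = 12) and 0.85 (n = 10) with the mean log2 CPM of the 5 members. With the mean of both paralog ratios, which is higher where the a cluster has more of the counts, r was -0.81 (n = 12) and -0.72 (n = 10) for the vascular list, 0.77 and 0.65 for the leukocyte list, 0.71 and 0.59 for the erythrocyte list and 0.70 and 0.66 for the fibroblast list. These sums share libraries and a total with the members. Lists of 3 liver and 6 muscle miRs each summed to 0 CPM in 1 listed library and stood at 10766 and 8881 CPM in vehicle day 7 replicate 1, against highest values of 10141 and 1872 CPM in the listed libraries. In rapamycin day 7 replicate 2 they stood at 8679 and 817 CPM, inside the range of the listed libraries. A list of 5 fibroblast miRs, 2 of them without a count in some library, ran from 67406 to 119514 CPM in the listed libraries. It stood at 66660 and 78873 CPM in those outside the list, rapamycin first. The part of any of these sources in the levels of the 5 miRs was not tested.

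The opposite strands of the precursors were rare, with one exception. miR-24-2-5p, from the a cluster, was counted in 12 of 12 libraries with 13 to 67 counts and 356 in all, whereas miR-24-1-5p, from the b cluster, was counted in 2 libraries with 9 counts in all. These arms are shown because, unlike miR-24-3p, they differ between the loci (capitals mark the bases from the first difference on).
miR-24-1-5p: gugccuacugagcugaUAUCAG
miR-24-2-5p: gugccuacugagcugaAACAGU

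Both libraries with miR-24-1-5p were the unlisted ones, with 7 counts in vehicle day 7 replicate 1 and 2 in rapamycin day 7 replicate 2. The first 16 bases of the arms are the same, so only reads that go past base 16 tell them apart. Of the other arms, miR-27a-5p had 75 counts in 10 libraries, miR-23a-5p 25 in 7, miR-27b-5p 11 in 3 and miR-23b-5p 6 in 3. No arm that passed the abundance filter of a comparison was called. None passed it for treatment over 12 libraries or at day 7 over the 10, and miR-24-1-5p had no count in the 10, so those were not tested.

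miR-128-3p, a miR outside the clusters, shares 6 bases of its seed with miR-27 (CACAGU, bases 2 to 7 of miR-128-3p and bases 3 to 8 of miR-27). The paper had already reported it as lower with rapamycin from these data, and it was picked with that known. In the listed libraries it was lower with rapamycin, with a log2 fold change of -0.86 (SE 0.20, adjusted p = 0.00192 after the abundance filter and 0.00636 without it, by edgeR). Over 12 libraries the value was -0.90 (SE 0.31), and its call there rested on the filter that left 26 miRs (adjusted p = 0.0446 with it and 0.731 without it). With RLE, no scaling factor, the calibrators, DESeq2 or limma-voom over the 12, 0 miRs were called for treatment, miR-128-3p included, and 6 to 30 had an unadjusted p under 0.05. In the listed libraries it ran from 12899 to 35754 CPM with rapamycin and from 38321 to 65250 CPM with vehicle, without overlap, whereas over 12 libraries the ranges were 6259 to 35754 CPM and 2748 to 65250 CPM. miR-27a-3p and miR-27b-3p overlapped between treatments in the same libraries, and the difference between their change and that of miR-128-3p was not tested.

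Outside the clusters, the miRs whose log2 CPM followed the mean log2 CPM of the 5 most closely over 12 libraries, among 69 miRs that reached 10 counts in all libraries, were miR-30a-5p (r = 0.95), miR-99a-5p (0.95), miR-30d-5p (0.94), miR-378a-3p (0.92) and miR-29a-3p (0.90). In the 10 listed libraries the first 3 kept that order, with r = 0.96, 0.91 and 0.88. miR-29a-3p is also in the fibroblast list above. miR-30a-5p stood highest in the unlisted libraries, at 33069 CPM with vehicle and 27688 CPM with rapamycin, and lowest in rapamycin day 21 replicate 3, at 5670 CPM. Likeness is a description over libraries that share depth and preparation.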

How the data were processed

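Small RNA of EVs isolated from rat serum by size exclusion was sequenced from 12 rats. The authors deposited raw counts of reads per mature miR, with no normalization. Per the labels and the study's methods, reads were trimmed with cutadapt 3.3 and mapped with Bowtie 1.3.0 to the rat genome and then to miRBase, with mismatches allowed. The data hold 426 miRs and 10 spike-in sequences, of which 7 are calibrators, and miR totals exclude them all.

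Counts were analysed in R 4.3.3 with edgeR 4.0.16 (quasi-likelihood test, TMM, all 12 libraries, 4 groups of 3). Adjustment was by Benjamini-Hochberg after a filter on mean abundance, after the study's method, whose quantile (0 to 0.95 by 0.01) was the one with most calls. The 5 comparisons were rapamycin against vehicle at day 7, at day 21 and with timepoint as a block, day 21 against day 7 with treatment as a block, and the interaction. Each was refitted on the 10 listed libraries. Ratios of counts, each plus 0.5, were tested by exact permutation within the other factor or by sign flips. DESeq2 1.42.0 and limma 3.58.1 were alternatives. Scripts were tested on simulated data.

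Groups came from the labels, which call each library a biological replicate. The members and lists were chosen with earlier results of these data known. Named miRs were every member, the opposite strands of their precursors, miR-128-3p, and the 5 miRs outside the clusters with the highest correlation to the members' mean log2 CPM. The depth was 16327 to 95834 miR counts, at which 3 counts, the smallest level taken as detectable, stood at 31.3 to 184 CPM of miR counts without TMM scaling. Sequences came from RefSeq (GRCr8), where all 5 members were found.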

Additional observations from a re-analysis of the deposited data

How the results depend on the processing

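In the comparisons of treatment at day 7, at day 21, over both timepoints and in the interaction, 0 of the 5 miRs was called under any alternative, with paralogs summed to one row included. Between timepoints 2 were called with RLE size factors, 2 with no scaling factor and 5 with the calibrators as library size, and 0 to 3 when each library was left out. With the replicate number as a block 0 were called in any comparison, and the time estimates were -0.81 for miR-23b-3p and -0.85 for miR-27b-3p. The block rests on a number alone, since the deviations of same-numbered libraries correlated at -0.34 at day 7 and -0.31 at day 21 on average. In 12 libraries it left 14 miRs called between timepoints in place of 21. Over all miRs the calls between timepoints numbered 36 of 251 tested with RLE, 34 of 290 with no scaling factor, 137 of 311 with the calibrators and 2 of 423 with DESeq2. They numbered 0 with limma-voom, filterByExpr or a minimum of 10 counts, and 5 of 168 over the 10 listed libraries. Leaving out each of the 12 libraries gave 8 of 282 (without vehicle day 7 replicate 1) to 35 of 262 (without vehicle day 7 replicate 3). For treatment over both timepoints they numbered 2 by edgeR, 5 over the 10 libraries and 0 under each other setting run on all 12 libraries, paralogs summed included, and at day 7 they numbered 1 by edgeR, 3 over the 10 and 0 to 2 under the other settings that left no library out. The settings that combine the 10 listed libraries with another change were added after the data were seen. For signs that turned, the cause was not tested.

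Over the 10 libraries the log2 ratio of miR-27a-3p to miR-27b-3p was -0.31 and lost its call. Leaving out each library it ran from -0.60 to -0.41 among the 12 and from -0.39 to -0.22 among the 10. miR-24-3p turned to 0.71 at day 7, 0.37 for treatment and 0.57 in the interaction, miR-27a-3p to 0.079 for treatment and miR-23a-3p to 0.044 for time. For treatment miR-27a-3p also turned with RLE (0.089), no scaling factor (0.094), a minimum of 10 counts (0.023) and DESeq2 (0.091), and at day 21 with no scaling factor (0.0032). In the interaction miR-23b-3p turned with no scaling factor (-0.0058) and with filterByExpr (-0.029), and miR-24-3p with limma-voom (0.055). At day 21 limma-voom gave miR-24-3p -0.19, and the replicate block gave it -0.034 and miR-23b-3p -0.040. With the calibrators as library size miR-23a-3p, miR-23b-3p, miR-27a-3p and miR-27b-3p turned at day 7 (-1.002, -0.94, -1.05 and -0.70), miR-23a-3p and miR-24-3p at day 21 (-0.041 and -0.068), miR-23a-3p, miR-23b-3p and miR-27b-3p for treatment (-0.52, -0.38 and -0.29), and miR-23b-3p, miR-27a-3p and miR-27b-3p in the interaction (-1.12, -0.66 and -0.81).

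Leaving out each library, log2 fold changes that changed sign ran as follows. At day 7 they ran from -0.14 to 0.17 for miR-23a-3p, -0.12 to 1.08 for miR-23b-3p, -0.20 to 0.26 for miR-27a-3p and -0.65 to 0.73 for miR-24-3p. At day 21 they ran from -0.12 to 0.42 for miR-23a-3p, -0.59 to 0.86 for miR-23b-3p, -0.35 to 0.089 for miR-27a-3p, -0.10 to 0.67 for miR-27b-3p and -0.78 to 0.49 for miR-24-3p. For treatment they ran from -0.037 to 0.22 for miR-23a-3p, -0.044 to 0.65 for miR-23b-3p, -0.18 to 0.10 for miR-27a-3p and -0.50 to 0.38 for miR-24-3p. For time they ran from -0.19 to 0.020 for miR-23a-3p and -0.16 to 0.035 for miR-27a-3p. In the interaction they ran from -0.40 to 0.15 for miR-23a-3p, -0.51 to 0.94 for miR-23b-3p, -0.029 to 0.42 for miR-27a-3p, -0.30 to 0.63 for miR-27b-3p and -0.79 to 0.63 for miR-24-3p. The treatment difference of the miR-23 ratio ran from -0.50 to 0.0079 (-0.71 to -0.038 leaving out each of the 10). Depth limits miR-23b-3p most, with 46 counts in its lowest library.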

Other observations

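Per 1000 calibrator counts, 4 of the 5 miRs not yet described on this scale were higher in both unlisted libraries than in any listed one. miR-24-3p had 62.5 counts in the unlisted rapamycin library and 339 in the unlisted vehicle library, against 2.02 to 13.7 in the listed libraries. miR-23a-3p had 127 and 295 against 9.79 to 27.3, miR-27a-3p 32.4 and 82.4 against 2.69 to 7.79, and miR-27b-3p 111 and 204 against 3.15 to 14.4. Over the 12 libraries, the log2 ratios of the paralogs correlated with the log2 of miR counts per calibrator count at r = -0.57 (miR-23) and -0.59 (miR-27). Over the 10 listed libraries those values were -0.05 and 0.10.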
